A study of Homo sapiens with 4 samples.

Results

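The transcription factors that drive epithelial-mesenchymal transition (EMT) were read from 32 probe sets of 10 genes, out of 49395 probe sets on the array and 18132 genes with a probe set naming only them. The 10 genes were SNAI1, SNAI2, ZEB1, ZEB2, TWIST1, TWIST2, TCF3, TCF4, PRRX1 and FOXC2, and every probe set whose platform annotation named exactly 1 of them was taken. Each array came from total RNA of cells labelled as MDA-MB-231, a human triple-negative breast cancer line from a pleural effusion. Of the 4 arrays, 2 were of ELK3 KD cells, in which a retrovirus had stably integrated an shRNA against the ETS factor ELK3 and puromycin had selected the carriers, and 2 were of control cells with an integrated control shRNA. The parental line carried GFP and luciferase, the arrays of a group are labelled as biological repeats 1 and 2. No source used here says whether the repeats were separate lines or cultures, so every p-value measures array-to-array spread, which may be technical.

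In EMT, epithelial cells give up cell-cell junctions and gain motility. The zinc-finger repressors SNAI1 (Snail) and SNAI2 (Slug) and the zinc-finger homeodomain factors ZEB1 and ZEB2 bind E-boxes in promoters of junction genes such as CDH1, which encodes E-cadherin. The basic helix-loop-helix factors TWIST1 and TWIST2 work as dimers with E proteins, among them TCF3 (E2A) and TCF4 (E2-2), while the homeodomain factor PRRX1 and the forkhead factor FOXC2 are inducers known from embryonic mesenchyme. MDA-MB-231 is used as a mesenchymal, invasive line, and the comparison asks how these factors stood once ELK3 was suppressed.

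All values are log2 intensities after RMA, a method that subtracts background, brings arrays to a like distribution and summarises the probes of a set. The deposited columns still differed slightly, with medians of 6.27 and 6.27 in ELK3 KD arrays and 6.23 and 6.23 in control arrays. No detection call came with them. As a guide to background, 359 probe sets for olfactory receptors were used, genes expressed mainly in the nose. Their values had a 99th percentile of 7.02 and a 95th percentile of 5.71, which is the guide. A mean below it is called dim here. ELK3 itself read 8.34 and 8.33 in ELK3 KD arrays, against 10.85 and 10.82 in control arrays. The cells of the groups also differed in genes that identify the line. Of 12 genes that mark MDA-MB-231, all were lower in ELK3 KD cells by limma (adjusted p under 0.05), against 23.5% of all genes. In ELK3 KD cells 7 of the 12 lay above the guide, against 12 of 12 in control cells. Averaged over the list, these genes read 6.95 and 6.87 in ELK3 KD arrays and 11.34 and 11.23 in control arrays. AXL, NT5E, S100A6 and KRT7 were dim in ELK3 KD cells. PLAU, at 5.85 and 5.57 in ELK3 KD arrays, averaged almost exactly the guide and was counted as below it. CDKN2A lies in a region of chromosome band 9p21 that MDA-MB-231 is known to lack. It read 11.33 and 11.43 in ELK3 KD arrays, against 5.10 and 4.61 in control arrays. Among 12 probe sets for CDKN2A and its neighbours CDKN2B and MTAP, 10 were over 4-fold higher in ELK3 KD cells (2.74% of all probe sets were). CDKN2B averaged 6.97 in ELK3 KD and 3.02 in control arrays. MTAP at its brightest probe set went the other way, with 6.25 and 6.48 in ELK3 KD arrays against 6.78 and 6.84 in control arrays (adjusted p = 0.0201 from limma). Of 14 measured genes of HEK293, a line often used to package viruses, 10 were higher and 0 lower by limma. Of all genes 26% were higher and 23.5% lower. List means were 8.48 and 8.54 in ELK3 KD arrays against 5.72 and 5.44 in control arrays. The largest rises were those of UCHL1 (8.41 on the log2 scale), NEFL (7.58) and SOX11 (5.81), each from a dim control level. NEFM and PAX2 were dim in both groups. INA (6.19 in ELK3 KD and 6.09 in control arrays) and EYA1 (6.44 and 6.07) lay above the guide in both groups and were not called. The part of these differences in the results below was not tested, and in every comparison loss of ELK3 and a difference between the cells themselves cannot be told apart.

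The 10 factors split between the groups. At their brightest probe sets TWIST1, TWIST2, TCF4 and PRRX1 were more than 4-fold higher in ELK3 KD cells and dim in control cells. By the mean of all their probe sets only TWIST1 and TCF4 passed 4-fold, with TWIST2 at 1.45 and PRRX1 at 1.79 on the log2 scale. In a bulk sample more cells with a transcript and more transcript per cell cannot be told apart. SNAI2 was more than 4-fold lower, and ZEB1 and TCF3 were lower by smaller steps, all 3 with levels above the guide in both groups. SNAI1, FOXC2 and ZEB2 were dim in both groups. By limma with Benjamini-Hochberg adjustment over all genes, each gene read from its brightest probe set, 6 factors were higher (26% of all genes were) and 3 lower (23.5% of all genes were), and ZEB2 did not pass. Across both directions 9 of 10 factors were called, against 49.5% of all genes. More than 4-fold changes were seen in 4 factors upward, against 3.19% of all genes, and in 1 downward, against 2.32%. The median size of change, regardless of sign, was 1.47 on the log2 scale over the 10 factors and 0.30 over all genes. No factor lay between ZEB1 (-0.80) and SNAI2 (-2.14) in size, so that median describes no single factor. TWIST1, TWIST2, TCF4 and PRRX1 exceeded it against dim control signals. No factor's groups overlapped at the brightest probe set, which held for 76.2% of all genes.

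**Figure D1:**
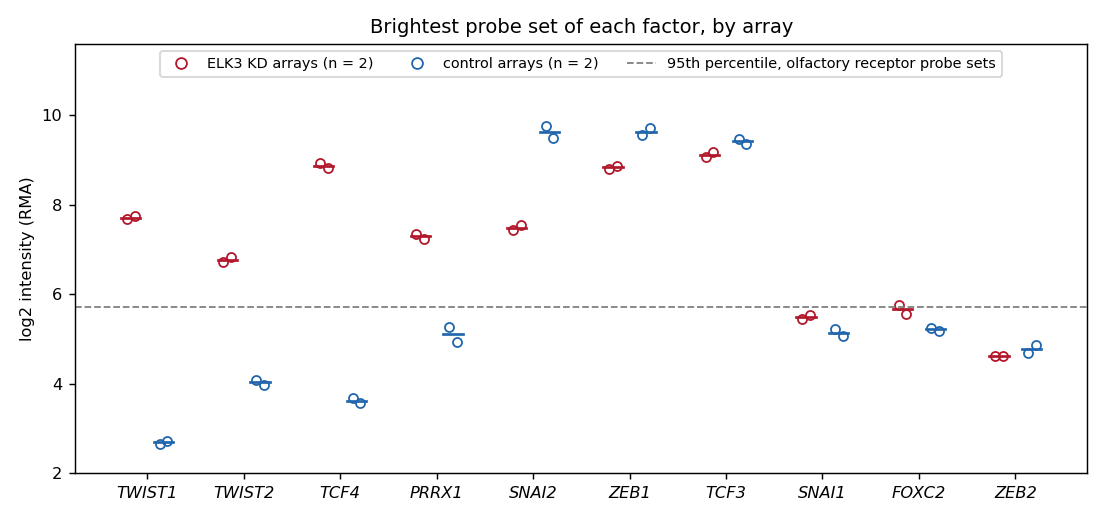
Log2 intensity (RMA) of the brightest probe set of each of the 10 factors, with the 2 ELK3 KD arrays to the left of the 2 control arrays, points for arrays and bars for group means. TWIST1, TWIST2, TCF4 and PRRX1 lie above the dashed olfactory receptor guide at 5.71 in ELK3 KD arrays and below it in control arrays, whereas SNAI2, ZEB1 and TCF3 lie above it in all 4 arrays.

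Among the helix-loop-helix factors, TWIST1, which specifies cranial mesoderm and neural crest mesenchyme and lies on chromosome 7, showed 1 of the largest rises on the array. Its single probe set read 7.68 and 7.75 in ELK3 KD arrays, against 2.64 and 2.72 in control arrays. Both control values lay far below the guide and both ELK3 KD values above it, and the arrays of a group lay close together. The log2 fold change was 5.03 (standard error 0.08, 95% interval 4.84 to 5.23, adjusted p = 1.66e-05 from limma), a 32.8-fold difference, and ranked 47 among 18132 genes from the highest. For TWIST1, as for TWIST2, TCF4 and PRRX1, the control level was dim, so a fold or rank describes the signals and the ratio of transcripts was not measured.

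TWIST2 (Dermo1, chromosome 2), a close relative of TWIST1 known from dermis and bone, read 6.73 and 6.82 in ELK3 KD arrays, against 4.09 and 3.97 in control arrays at its brighter probe set. Both ELK3 KD values lay above the guide but below 7.02, the 99th percentile of the olfactory receptor probe sets. The log2 fold change of TWIST2 was 2.75 (standard error 0.09, 95% interval 2.53 to 2.97, adjusted p = 4.39e-05 from limma). The other probe set of TWIST2 stayed dim in every array, at 3.42 and 3.47 in ELK3 KD arrays and 3.28 and 3.30 in control arrays, with a log2 fold change of 0.15 (95% interval -0.05 to 0.35, adjusted p = 0.167 from limma). The call of TWIST2 thus rested on 1 probe set, whose name ends in _s_at, the suffix for sets whose probes can match more than 1 transcript. TWIST1 was higher in the same arrays, and the part of TWIST1 RNA in this signal was not tested.

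TCF4, on chromosome 18, encodes E2-2, an E protein that dimerises with tissue-restricted helix-loop-helix factors and is prominent in neural and plasmacytoid dendritic cells. At the brightest of its probe sets TCF4 gave 8.93 and 8.82 in ELK3 KD arrays, against 3.67 and 3.57 in control arrays. The log2 fold change of 5.26 (standard error 0.08, 95% interval 5.04 to 5.47, adjusted p = 1.66e-05 from limma) ranked 38 among all genes, and by the mean of all probe sets of TCF4 it came to 3.56. The control signal was dim, so neither value measures a ratio of transcripts. TCF4 had 11 probe sets, and all 11 were called higher in the fit over all 44988 probe sets, where 24.6% were called higher. Their log2 fold changes ran from 1.24 to 5.26 with a median of 3.31, and 10 of the 11 passed 4-fold. In control arrays the 11 probe sets read 2.84 to 4.33, all dim, and in ELK3 KD arrays 4.18 to 8.93. The lowest of them in ELK3 KD arrays, at 4.18 and 4.24, stayed dim there too. Of 554 genes with at least 7 probe sets, 7.58% had all of them called higher. Probe sets of 1 gene can share probes and always share the RNA, so they are no replicates.

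TCF3, on chromosome 19, encodes the E proteins E12 and E47, the general dimer partners of the TWIST factors, and E47 itself represses CDH1. At the brightest of its probe sets TCF3 gave 9.07 and 9.18 in ELK3 KD arrays, against 9.47 and 9.37 in control arrays. The groups lay close to each other without overlapping, at a log2 fold change of -0.30 (standard error 0.08, 95% interval -0.51 to -0.08, adjusted p = 0.0385 from limma). Of its 4 probe sets, 3 were called lower (24.3% of all probe sets were), at -0.30 to -0.40, and the other changed by -0.07 (95% interval -0.27 to 0.14, adjusted p = 0.522 from limma). The call of TCF3 was lost without any 1 of the 4 arrays (adjusted p = 0.0549 to 0.209 from limma). The remaining E protein gene, TCF12 (HEB), looked up after its values were seen, read 8.24 and 8.18 in ELK3 KD arrays against 9.02 and 9.28 in control arrays, and changed by -0.95 on the log2 scale (adjusted p = 0.00187 from limma).

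**Figure D2:**
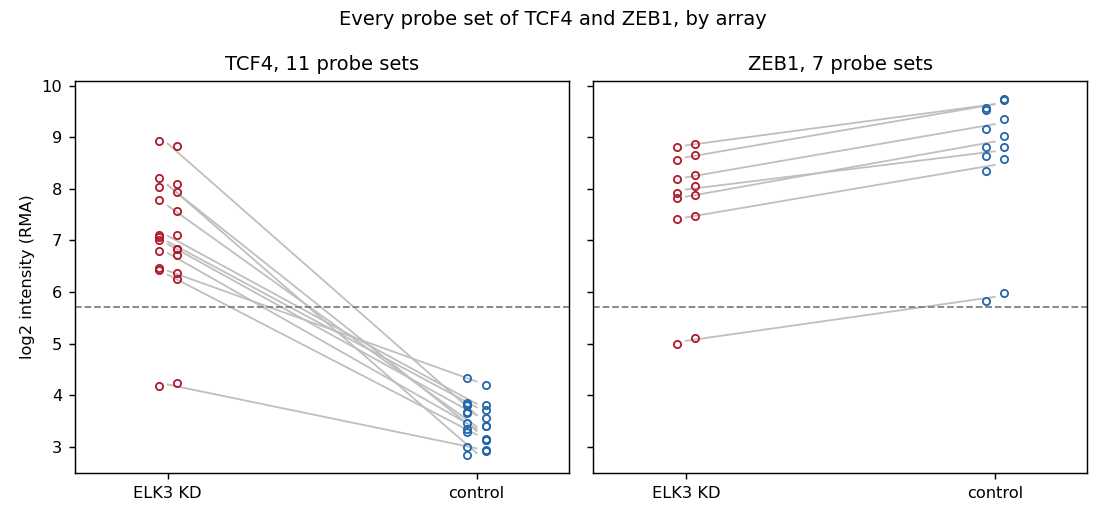
Log2 intensity (RMA) of all 11 probe sets of TCF4 and all 7 of ZEB1, with ELK3 KD arrays on the left and control arrays on the right of each panel, points for arrays and lines joining the group means of a probe set. Every TCF4 line falls toward control, where all values lie below the dashed guide at 5.71, and every ZEB1 line rises toward control.

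PRRX1 (chromosome 1), a homeodomain factor of limb and craniofacial mesenchyme, was higher at both of its probe sets. The brighter 1, whose name ends in _s_at, read 7.35 and 7.23 in ELK3 KD arrays, against 5.28 and 4.93 in control arrays. Its log2 fold change was 2.19 (standard error 0.14, 95% interval 1.84 to 2.54, adjusted p = 0.000267 from limma) against a dim control signal, and 1.79 by the mean of both probe sets. The dimmer probe set of PRRX1 read 5.46 and 4.77 in ELK3 KD arrays, against 3.47 and 3.97 in control arrays, dim in both groups. The ELK3 KD arrays were furthest apart there among all 32 probe sets, by 0.69, and the log2 fold change of 1.40 (adjusted p = 0.0115 from limma) lost its call without ELK3 KD replicate 1 (1.05, adjusted p = 0.0589) and without control replicate 1 (1.15, adjusted p = 0.0881).

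Of the Snail factors, SNAI2 (chromosome 8), the repressor of junction genes that basal mammary cells and MDA-MB-231 are known to express, was lower in ELK3 KD cells. Its single probe set read 7.45 and 7.54 in ELK3 KD arrays, against 9.76 and 9.49 in control arrays. All 4 values lay above the guide, so both levels were measured, and the gap between the groups was far wider than that within either. The log2 fold change was -2.14 (standard error 0.11, 95% interval -2.43 to -1.84, adjusted p = 0.000179 from limma), a 4.39-fold difference. It was the only factor of the 10 that was over 4-fold lower, just past the bound of -2 on the log2 scale.

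SNAI1 (chromosome 20), whose protein is short-lived and acts early in EMT, had a single probe set with 5.44 and 5.53 in ELK3 KD arrays, against 5.23 and 5.06 in control arrays. All 4 values were dim. The log2 fold change of SNAI1 was 0.34 (95% interval 0.10 to 0.58, adjusted p = 0.0333 from limma), and the call was lost without ELK3 KD replicate 1 (adjusted p = 0.117), without ELK3 KD replicate 2 (0.182) and without control replicate 2 (0.0868).

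ZEB1 (chromosome 10), which silences the miR-200 genes and epithelial splicing factors in mesenchymal cells, was lower at all 7 of its probe sets. The brightest read 8.81 and 8.87 in ELK3 KD arrays, against 9.56 and 9.72 in control arrays, and its log2 fold change came to -0.80 (standard error 0.09, 95% interval -1.03 to -0.57, adjusted p = 0.00161 from limma). The 7 probe sets changed by -0.74 to -1.07 with a median of -1.02 and their adjusted p ran from 0.000926 to 0.00312 in the limma fit over probe sets. Of genes with at least 7 probe sets, 12.3% had all of them called lower. All 7 names end in _s_at or _x_at, so their probes can overlap or match other transcripts. The signal was well above the guide in ELK3 KD cells at 6 of the 7 probe sets, whose means there ran from 7.44 to 8.84.

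ZEB2 (SIP1, chromosome 2), the SMAD-interacting relative of ZEB1, was dim in all arrays. The brighter of its 2 probe sets read 4.63 and 4.61 in ELK3 KD arrays, against 4.68 and 4.85 in control arrays, with a log2 fold change of -0.15 (95% interval -0.38 to 0.08, adjusted p = 0.236 from limma). The other read 4.38 and 4.69 in ELK3 KD arrays, against 4.41 and 4.37 in control arrays, with a log2 fold change of 0.15 (95% interval -0.17 to 0.47, adjusted p = 0.383 from limma). The probe sets of ZEB2 thus leaned in opposite directions, the groups overlapped at the dimmer 1, and a change of ZEB2 was not detectable at this signal.

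FOXC2 (chromosome 16), a forkhead factor of lymphatic and somite development, read 5.76 and 5.56 in ELK3 KD arrays, against 5.24 and 5.19 in control arrays at its single probe set. Only 1 of the 4 values, in ELK3 KD replicate 1, exceeded the guide. The log2 fold change of FOXC2 was 0.45 (95% interval 0.19 to 0.70, adjusted p = 0.0165 from limma), a call that was lost without ELK3 KD replicate 1 (0.34, adjusted p = 0.0988), without control replicate 1 (0.47, adjusted p = 0.0645) and without control replicate 2 (0.42, adjusted p = 0.0772).

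**Figure D3:**
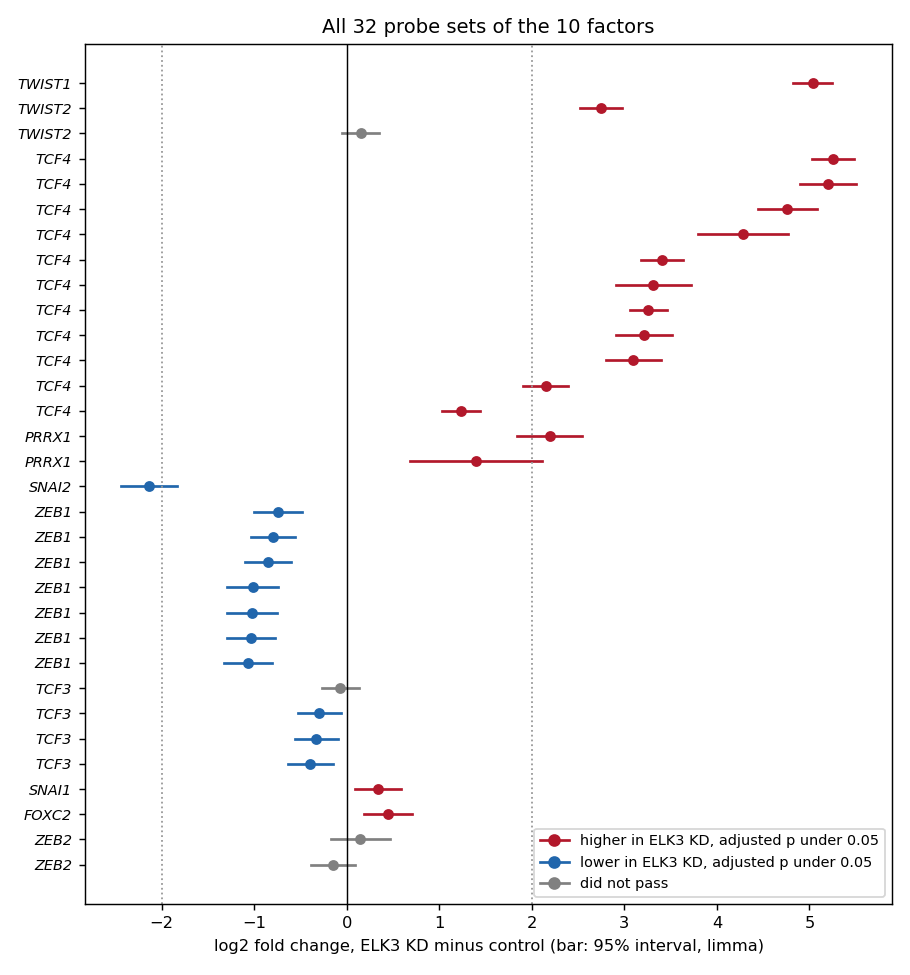
Log2 fold change, ELK3 KD minus control, of all 32 probe sets of the 10 factors, with 95% intervals from limma and dotted lines at a 4-fold change. The 11 probe sets of TCF4 lie from 1.24 to 5.26 and the 7 of ZEB1 from -1.07 to -0.74, whereas the single probe set of SNAI2 lies at -2.14.

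Counted over probe sets, 17 of the 32 were called higher and 11 lower, 28 in all against 48.9% of all probe sets, and 4 did not pass (1 of TCF3, 1 of TWIST2 and both of ZEB2). More than 4-fold changes were seen in 13 probe sets upward (2.74% of all probe sets) and 1 downward (2.27%). The groups did not overlap at 31 of the 32, against 75.8% of all probe sets. Relative to the guide, 11 probe sets were above it in both groups, 13 in ELK3 KD cells only, 1 in control cells only and 7 in neither. Replicate arrays of a group lay close together, with a median gap of 0.09 between ELK3 KD arrays and 0.16 between control arrays over the 32 probe sets, against 0.09 and 0.13 over all probe sets. The number of arrays limits the precision.

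Related factors were also compared within each array. The difference of log2 values of SNAI2 minus SNAI1 was 2.01 and 2.01 in ELK3 KD arrays and 4.53 and 4.44 in control arrays, so the difference changed by -2.48. SNAI1 was dim in every array, so this difference sets SNAI2 against background and no unequal change can be read from it. TCF4 minus TCF3 was -0.14 and -0.35 in ELK3 KD arrays and -5.80 and -5.80 in control arrays, a change by 5.55, or by 3.83 when the means of all their probe sets were used, with TCF4 dim in control arrays. TWIST2 minus TWIST1 was -0.96 and -0.93 in ELK3 KD arrays and 1.45 and 1.25 in control arrays, a change by -2.29, or by -3.58 over the means of all probe sets. Both TWIST genes were dim in control arrays, so the control difference sets background against background and no unequal change can be read from it. ZEB2 minus ZEB1 was -4.18 and -4.26 in ELK3 KD arrays and -4.88 and -4.87 in control arrays, a pair in which ZEB1 changed and ZEB2 was dim. Such differences compare changes and not levels, since probe sets of different genes differ in brightness. For each pair the groups did not overlap, and the exact two-sided permutation p was 0.333, the smallest that 2 against 2 arrays can give.

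**Figure D4:**
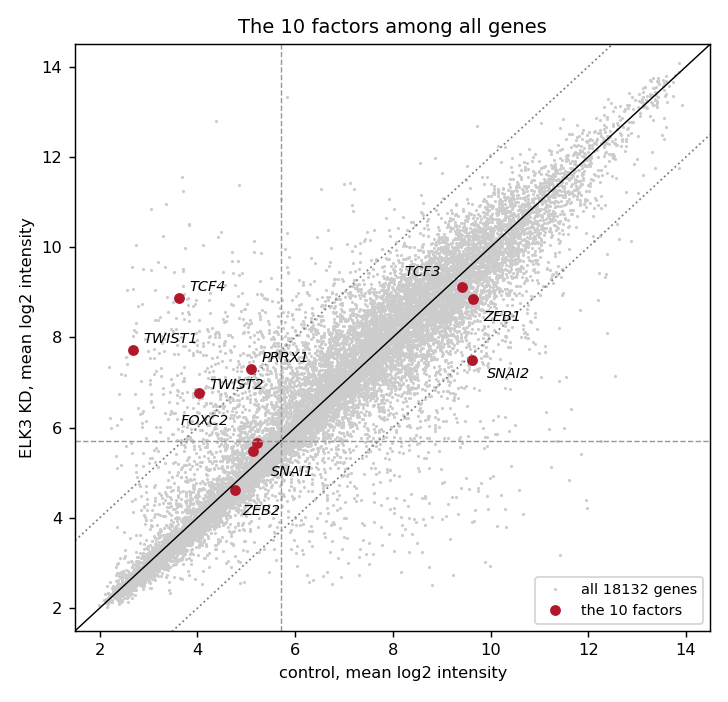
Mean log2 intensity of 18132 genes in ELK3 KD arrays (vertical axis) against control arrays (horizontal axis), with the 10 factors in red, dotted lines at a 4-fold difference and dashed lines at the olfactory receptor guide of 5.71. TWIST1 and TCF4 lie far above the upper dotted line, TWIST1 at 7.72 in ELK3 KD against 2.68 in control arrays and TCF4 at 8.88 against 3.62.

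Start-site sequences were looked up in RefSeq for GRCh38.p14, as windows of 250 bases before and 50 bases from the start on. They covered 6 of the 10 factors with 21 windows, 10 of TCF4, 7 of ZEB1 and 1 each of ZEB2, TWIST2, TCF3 and PRRX1. The E-box CACCTG, read on both strands (CAGGTG on the other), is bound by the Snail and ZEB factors. It was found in 2 of 7 windows of ZEB1 and in none of the windows of the other 5 genes, against 20.6% of all 35116 windows. The general E-box CANNTG, which includes CACCTG, was in 4 windows of ZEB1, 7 of TCF4 and 1 of ZEB2, and in 68.7% of all windows. The ETS motif CCGGAAGT (ACTTCCGG on the other strand) was in none of the 21 windows and in 4.14% of all. The ZEB1 window with the most CACCTG sites is shown because it holds 3 of them, starting 242 and 85 bases before and at base 34 of the transcript, and the windows of the risers PRRX1 and TWIST2 and of TCF4 at its outermost start are shown beside it. Capitals mark CACCTG or CAGGTG.
ZEB1 promoter window, chr10:31318966-31319265, plus strand: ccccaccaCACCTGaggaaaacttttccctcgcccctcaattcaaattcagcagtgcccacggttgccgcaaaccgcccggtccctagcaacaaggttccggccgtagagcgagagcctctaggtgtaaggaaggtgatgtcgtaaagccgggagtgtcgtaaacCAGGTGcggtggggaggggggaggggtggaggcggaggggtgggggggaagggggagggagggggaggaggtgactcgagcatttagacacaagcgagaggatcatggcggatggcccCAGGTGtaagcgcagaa
PRRX1 promoter window, chr1:170663881-170664180, plus strand: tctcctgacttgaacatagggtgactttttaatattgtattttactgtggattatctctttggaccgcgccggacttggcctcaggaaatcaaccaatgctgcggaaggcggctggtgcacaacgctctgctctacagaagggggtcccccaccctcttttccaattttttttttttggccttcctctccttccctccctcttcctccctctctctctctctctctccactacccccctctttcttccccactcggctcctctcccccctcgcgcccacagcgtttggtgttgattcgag
TWIST2 promoter window, chr2:238847835-238848134, plus strand: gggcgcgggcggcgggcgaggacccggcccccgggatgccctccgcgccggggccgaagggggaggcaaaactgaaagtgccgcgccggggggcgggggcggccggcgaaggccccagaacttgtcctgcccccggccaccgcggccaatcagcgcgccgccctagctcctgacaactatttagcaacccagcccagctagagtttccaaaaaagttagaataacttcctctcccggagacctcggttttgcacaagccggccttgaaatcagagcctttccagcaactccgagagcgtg
TCF4 promoter window, chr18:55635908-55636207, minus strand: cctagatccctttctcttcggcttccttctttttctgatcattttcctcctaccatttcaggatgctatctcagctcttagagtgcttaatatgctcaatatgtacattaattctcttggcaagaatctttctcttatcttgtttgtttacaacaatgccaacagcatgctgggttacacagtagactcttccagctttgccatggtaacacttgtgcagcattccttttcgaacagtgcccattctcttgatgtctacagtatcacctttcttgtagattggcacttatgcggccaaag
The windows hold the letters of 1 annotated start each, and whether these starts were used in the cells was not measured here.

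Genes nearest to the extreme factors in their log2 values over the 4 arrays, each gene centred on its mean, were found by Euclidean distance. Nearest to TCF4 were DZIP1 (distance 0.16), PCDHB2 (0.17) and PCDH9 (0.20), and 26 genes lay within 0.5. Nearest to SNAI2 were CLDN4 (0.07), SRPX (0.09) and SMIM29 (0.09), with 245 genes within 0.5. CLDN4, a tight junction claudin, read 6.78 and 6.81 in ELK3 KD arrays and 9.02 and 8.82 in control arrays. With 4 arrays in 2 groups such likeness means little beyond a change of the same size and sign.

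Related genes were counted in lists, beside 26% of all genes called higher and 23.5% called lower. Of 18 measured genes in a list of further EMT-inducing factors, limma called 7 higher and 5 lower, with a median log2 fold change of 0.27 against -0.05 over all genes, and the share called lower was near that of all genes. SOX4, a progenitor factor induced by TGF-beta, read 11.26 and 11.33 in ELK3 KD arrays, against 7.38 and 7.02 in control arrays. GSC, the homeobox gene goosecoid of the embryonic organiser, averaged 6.33 in ELK3 KD and 3.34 in control arrays. The AP-1 subunit FOSL1 fell to a mean of 5.76 in ELK3 KD arrays, against 9.37 in control arrays (adjusted p = 4.94e-05 from limma). The bone factor RUNX2 fell to 6.20 in ELK3 KD arrays, against 9.29 in control arrays (adjusted p = 0.000138 from limma).

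Of 20 corepressors and binding partners of the factors 9 were higher (26% of all genes) and 7 lower (23.5% of all genes), with a median of -0.16. Without ELK3 KD replicate 1 fewer were called higher, and fewer of all genes were too. AJUBA, a LIM protein that links SNAI1 to its corepressors, changed by -1.89, whereas the deacetylase genes HDAC1 (1.36) and HDAC2 (1.22) and the histone demethylase gene KDM1A (1.20), whose product is recruited by SNAI1, were higher on the log2 scale. Of 14 genes that control the stability or phosphorylation of the factors, 8 were higher (26% of all genes) and 4 lower (23.5% of all genes) with a median of 0.39. Fewer were called without either ELK3 KD array or without control replicate 1, and fewer of all genes were called in those settings too. Centring the arrays left 5 higher and 5 lower, with 3883 of all genes higher and 6724 lower. The kinase gene PRKD1 read 6.92 and 6.78 in ELK3 KD arrays, against 3.64 and 4.28 in control arrays, and the ubiquitin ligase genes FBXW7 and STUB1 changed by 1.01 and 0.80 and the deubiquitinase gene USP27X by 1.12 on the log2 scale.

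Upstream, of 22 signalling genes 7 were higher and 9 lower, against 26% and 23.5% of all genes, with a median of -0.07. ID4 and ID2 encode inhibitors that bind E proteins and keep them off DNA. ID4 read 11.54 and 11.55 in ELK3 KD arrays, against 3.75 and 3.61 in control arrays, and ID2 read 8.89 and 9.02 in ELK3 KD arrays, against 3.39 and 4.08 in control arrays. The TGF-beta receptor gene TGFBR2 averaged 7.74 in ELK3 KD and 10.78 in control arrays (adjusted p = 5.6e-05 from limma), while TGFBR1 differed by -0.04 (adjusted p = 0.749 from limma). SMAD6, an inhibitor of BMP signalling, changed by 3.42 and the ligand gene WNT5A by 3.60, both from a dim control level.

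Of 34 measured epithelial genes that Snail, ZEB or Twist factors are known to repress, 12 were called higher (26% of all genes) and 8 lower (23.5% of all genes, the same share), with a median of 0.10. Without either ELK3 KD array fewer were called lower, and fewer of all genes were too. CDH1 was dim in both groups, at 4.13 in ELK3 KD and 4.20 in control arrays (adjusted p = 0.661 from limma). ESRP1, an epithelial splicing factor silenced by ZEB1, read 5.59 and 5.33 in ELK3 KD arrays, against 4.57 and 4.19 in control arrays, a called rise (adjusted p = 0.00439 from limma) between dim levels. MARVELD3, a tight junction protein, averaged 5.72 in ELK3 KD and 3.58 in control arrays, whereas the adhesion gene EPCAM (-5.06, standard error 0.40) and the sorting adaptor gene AP1M2 (-3.64, standard error 0.09) were lower. EPCAM was dim in ELK3 KD arrays, at 3.47 and 3.41, against 9.11 and 7.88 in control arrays. The protease inhibitor gene SPINT2 read 4.88 and 5.34 in ELK3 KD arrays, against 9.91 and 7.57 in control arrays, and the wide gap between its control arrays gave -3.64 a 95% interval of -5.61 to -1.67 (adjusted p = 0.0141 from limma).
Of 29 mesenchymal genes that rise with EMT, 8 were called higher (26% of all genes, a like share) and 13 lower (23.5% of all genes), with a median of -0.30. N-cadherin, CDH2, averaged 9.97 in ELK3 KD and 6.75 in control arrays. The matricellular gene SPARC averaged 10.23 in ELK3 KD and 4.42 in control arrays, and the collagen gene COL3A1 6.94 in ELK3 KD and 3.49 in control arrays. CDH2 is also among the HEK293 genes. VIM averaged 12.49 in ELK3 KD and 13.51 in control arrays, and fibronectin, FN1, averaged 7.29 in ELK3 KD and 8.61 in control arrays. The steepest falls of this list were those of AXL (-7.74) and NT5E (-8.24), both also counted among the 12 genes that mark MDA-MB-231, with which the list shares 4 genes.
Of 10 fibroblast genes, 6 were also in the mesenchymal list. Of the 10, 3 were higher (26% of all genes, a like share) and 1 lower (23.5% of all genes). The 3 were COL3A1, COL1A1 (0.44 on the log2 scale) and LUM, which averaged 5.37 in ELK3 KD and 2.34 in control arrays, both dim. COL1A2, DCN, THY1, PDGFRA, FAP and POSTN were dim in both groups, and list means were 4.87 and 4.82 in ELK3 KD and 4.23 and 4.21 in control arrays. Of 9 blood cell genes, 0 were higher (26% of all genes) and 1, CD68, was lower (23.5% of all genes). PTPRC, CD3E, CD14 and SPI1 were dim in both groups. Above the guide were 4 of the 9 in ELK3 KD cells and 5 of the 9 in control cells, HBB, GATA1 and CD79A among them in both, with list means of 5.28 and 5.26 in ELK3 KD and 5.57 and 5.50 in control arrays.

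**Figure D5:**
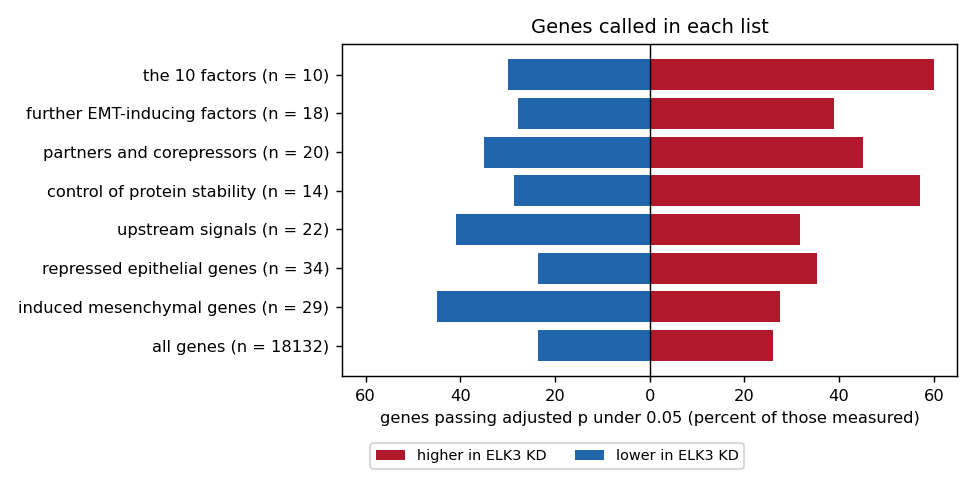
Share of measured genes called higher (right, red) or lower (left, blue) in ELK3 KD cells by limma (adjusted p under 0.05), in percent, for the 10 factors, 6 related lists and all 18132 genes. Both directions are present in every list, with 6 of 10 factors higher and 3 lower, and 8 of 29 induced mesenchymal genes higher and 13 lower.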

How the data were processed

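The deposited values were log2 intensities per probe set. Per the labels, the authors labelled total RNA with the Affymetrix 3' IVT Plus kit and made the values by RMA in Affymetrix Expression Console (version not given in the sources used here). The paper's methods name an Illumina BeadChip instead, while the probe set names are Affymetrix. RMA shrinks differences between low values and, through its quantile step, hides any difference in the amount of RNA a cell holds.

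All 4 columns were used, grouped by sample title. Of 49395 probe sets, 44988 named 1 gene (44961 matched by gene identifier to RefSeq of GRCh38.p14), 1832 several, 2473 none and 102 were controls. ELK3 KD arrays were set against control arrays with limma 3.58.1 (lmFit and eBayes, no block or filter; R 4.3.3), once over 18132 genes by the probe set with the highest mean and once over 44988 probe sets, with Benjamini-Hochberg adjustment at 0.05. Folds past 4 used group means without a test. Signed changes are ELK3 KD minus control. Figures used matplotlib 3.10.9 in Python 3.11.15.

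The members, lists and marker genes were chosen with earlier results of these data known, so no list is independent evidence. Named were all 10 factors, up to 4 called genes of each list and 3 of each marker list with the largest changes and no overlap, CDH1, VIM, CDH2, ESRP1, TGFBR2, TGFBR1, FN1 and the 9p21 genes. Other markers and TCF12 were named after their values were seen. Listed genes without a probe set of their own were not analysed here.

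The fit was tested on simulated data. Same-numbered arrays deviated together with a correlation of 0.01 over genes, so the numbers were not taken to pair the arrays. Alternatives were other normalizations, a filter, another prior, other probe set summaries, a block, each array left out and the methods' t-test.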

Additional observations from a re-analysis of the deposited data

How the results depend on the processing

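The number of arrays limits every call here, and no detection call marks which dim values were measured. Of 122 values of the 10 factors under alternative settings, 101 kept their direction and side of the threshold, 18 lost a call and 3 changed sign. SNAI2, ZEB1, TWIST1, TCF4 and PRRX1 lost no call in any setting that kept them, and leaving out 1 array moved TCF4 between 5.21 and 5.31 and ZEB1 between -0.88 and -0.72. ZEB2 changed sign by the mean or the median of its probe sets (0.001 each) and by its other probe set (0.15), and that other probe set ran from -0.011 without ELK3 KD replicate 2 to 0.306 without ELK3 KD replicate 1. TWIST2 read 0.15 (adjusted p = 0.164 from limma) when _s_at and _x_at probe sets were left out. TCF3 lost its call under a second quantile normalization (adjusted p = 0.0524) and under the replicate block (0.0791), which also ended the call of SNAI1 (0.0692). The block gave 5 factors higher and 2 lower, and 16 and 10 of their probe sets, and changed no other call of a factor. The numbers give no pairing beyond the label.

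Keeping only features above the median level left 0 factors and 0 of their probe sets called higher, because the mean of every such factor over all 4 arrays lay below that level. By the mean or by the median of all probe sets, 2 factors were over 4-fold higher (TWIST1 and TCF4). Without 1 array, 4 to 5 factors and 14 to 16 of their probe sets were higher, and 2 to 2 and 8 to 9 lower. With the methods' t-test after adjustment 4 factors were higher and 2 lower, but 3 of their probe sets were lower, since 5 of 7 probe sets of ZEB1 (adjusted p = 0.0506 to 0.0673) and all of TCF3 missed the threshold. Over all genes that test called 2576 higher and 2086 lower, and over all probe sets 5185 and 4904. Centring each array on its median moved the median change of all genes by -0.14 and gave 3883 higher and 6724 lower genes (36.6% of calls higher, against 52.6%), with SNAI1 at 0.20 (adjusted p = 0.105) and all 10 factors in the same direction. Without 1 array, 3080 to 4388 genes were higher and 2430 to 3976 lower, and 6842 to 10113 and 6148 to 9647 probe sets. The lowest of these came without ELK3 KD replicate 1, and without ELK3 KD replicate 2 they were 3171 and 2493 genes and 6939 and 6348 probe sets. Of 156 counts of the related lists under alternatives, 22 moved by over 1.5 times. The causes were not tested.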
